A study of Mus musculus with 26 samples.

Results

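The mitochondrial respiratory chain and ATP synthase were followed in mouse mammary gland through their nuclear genes. Members were chosen by symbol alone: probe sets with 1 annotated symbol starting with Nduf, Uqcr, Cox4 to Cox8 or Atp5, or equal to Sdha, Sdhb, Sdhc or Sdhd. This gave 90 genes of 18193 named genes on the array, covered by 179 of 45037 probe sets. By complex, 34 genes belonged to complex I, 4 to complex II, 8 to complex III, 19 to complex IV and 17 to complex V, and 8 encode complex I assembly factors that share the Nduf prefix. Where a gene had several probe sets, the brightest on average over the 26 arrays stood for it. RNA came from the whole inguinal gland, frozen at collection. Glands of 2 strains, CBA/CaH and QSi5, were taken at pregnancy day 12 (P12), with 5 arrays each, and at lactation day 9 (L9), with 3 arrays each. An Advanced Intercross Line (AIL) bred from both strains, at generation 14, was studied at lactation day 9 only, under the codes AC (5 arrays) and AQ (5 arrays), which the labels do not explain. The labels name no treatment and no engineered allele, and the intercross has no pregnancy group here.

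The respiratory chain passes electrons from NADH (complex I) and succinate (complex II) through ubiquinone to complex III, cytochrome c and complex IV, which reduces oxygen. Complexes I, III and IV pump protons, and complex V, the ATP synthase, uses their return to make ATP. Each complex holds a catalytic core. All but complex II, which has 4 subunits, also hold many small accessory subunits, some of which exist as isoforms of muscle, brown fat or testis. In the mammary gland, milk synthesis draws on ATP and on citrate and reducing power made in part by mitochondria.

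Promoters of these genes are known targets of the factors NRF1, GABP (an ETS family factor), YY1 and ERR, so the RefSeq promoter windows (build GRCm38.p6, 250 bases before to 50 after the gene start) were searched for a short core of each motif on both strands. Of the 90 members, 74 matched, with 79 windows. The NRF1 core GCATGCGC was in 13.9% of the member windows and in 2.71% of all 32851 windows, the ETS core CCGGAAG in 24.1% and 8.86%, the YY1 core AAGATGGC in 12.7% and 2.75%, the ERR core AAGGTCA in 10.1% and 4.72%, and TATAAA in 11.4% and 13.6%. The windows given here are those of Uqcrc1 (chr9:108936398-108936697, plus strand), whose mRNA fell at lactation, Sdhb (chr4:140961021-140961320, plus strand), whose mRNA did not pass the test, and Cox8b (chr7:140900397-140900696, minus strand), an isoform of muscle and brown fat. Capitals mark the letters of any motif searched.
Uqcrc1: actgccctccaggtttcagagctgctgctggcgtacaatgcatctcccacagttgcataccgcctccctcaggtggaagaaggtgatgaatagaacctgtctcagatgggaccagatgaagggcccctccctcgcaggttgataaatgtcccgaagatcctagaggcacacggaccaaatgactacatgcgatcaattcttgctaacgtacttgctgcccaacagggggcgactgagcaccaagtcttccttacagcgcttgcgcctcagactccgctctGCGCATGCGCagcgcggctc
Sdhb: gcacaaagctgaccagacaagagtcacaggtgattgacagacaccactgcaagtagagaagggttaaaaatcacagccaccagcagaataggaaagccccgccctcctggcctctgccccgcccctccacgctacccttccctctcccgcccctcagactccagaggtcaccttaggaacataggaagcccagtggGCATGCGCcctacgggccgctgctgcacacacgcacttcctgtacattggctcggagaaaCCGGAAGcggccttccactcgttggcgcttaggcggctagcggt
Cox8b: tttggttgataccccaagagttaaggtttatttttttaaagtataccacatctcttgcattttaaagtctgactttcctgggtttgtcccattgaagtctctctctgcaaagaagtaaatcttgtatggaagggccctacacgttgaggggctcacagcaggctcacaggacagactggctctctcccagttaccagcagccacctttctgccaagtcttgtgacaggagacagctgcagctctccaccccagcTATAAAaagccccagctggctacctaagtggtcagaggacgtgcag
The Uqcrc1 window holds the NRF1 core on both strands, overlapping. The Sdhb window holds the NRF1 and ETS cores once each, and the Cox8b window holds TATAAA alone of the letters searched. Among the 18 windows of members that fell in both strains, 2 held the NRF1 core, 3 the ETS core, 3 the YY1 core, 2 the ERR core and 0 TATAAA. Among the other 61 windows these counts were 9, 16, 7, 6 and 9. These matches describe letters in a window, not bound sites.

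Levels are the deposited log2 values, on which a difference of 1 is a 2-fold change. Array medians lay between 5.00 and 5.30, and member means between 3.45 (Cox7b2, a testis isoform) and 13.5, with 60 members at or above 10. In all, 6 arrays lay more than 1 log2 unit above their group's median in skeletal muscle, brown adipocyte or B and plasma cell markers or in the Gapdh control, and are called the arrays that stood apart. Skeletal muscle markers (15 of 15 listed) were high on the pregnancy QSi5 arrays 3 and 5 and on AIL AC array 1, where their summed log2 level reached 15.5 and 14.1 on the highest pregnancy QSi5 array and on the AIL AC array, against group medians of 9.09 and 9.26. Brown adipocyte markers (8 of 10 listed) were high on the pregnancy CBA/CaH array 5, with a summed level of 13.4 against a group median of 9.76. B and plasma cell markers were high on the lactation QSi5 array 2. The Gapdh control, read as the 3' minus the 5' probe set, reached 6.50 for the pregnancy QSi5 array 4 and lay between 0.54 and 2.86 for all other arrays. Macrophage markers (10 of 11 listed), which were not used to single out arrays, were high on the pregnancy CBA/CaH array 4, at a median deviation from their mean over all arrays of 1.36 against a group median of 0.06. White adipocyte markers were low on the pregnancy CBA/CaH array 2, at -1.61 against 0.84. Without array 4 of that group 33 members were called lower and 5 higher in CBA/CaH, and without array 2 32 and 5. Luminal epithelial markers (10 of 10 listed) were present in every group, with summed levels of 13.4 to 15.4. In these bulk samples, fewer cells of a type and less RNA per cell cannot be told apart. P-values measure the spread between arrays labelled as separate mice, and the labels do not say more about their origin.

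Between mid-pregnancy and lactation, Ndufv1, Sdha, Sdhc and Uqcrc1, which are on the list of core subunits given below, fell in both strains. A few small accessory subunits such as Ndufv3 and Ndufa1 rose in both strains, and others such as Ndufa5 fell. Of the 90 members, 32 were called lower and 5 higher in CBA/CaH, and 26 lower and 10 higher in QSi5 (limma, adjusted p under 0.05 over all probe sets). Of these, 23 were lower and 5 higher in both strains, and none was called in opposite directions. Over all probe sets, 20.7% were called lower and 32.3% higher in CBA/CaH, while in QSi5 the shares were 23.1% and 35.9%. Among the 5587 probe sets with a mean of 8 or more, as most members have, 49.5% were lower and 9.95% higher in CBA/CaH, and 52.8% and 11.4% in QSi5. Of the 74 members at that level, 36.5% were lower and 5.41% higher in CBA/CaH, and 28.4% and 10.8% in QSi5. The median member difference was -0.38 in CBA/CaH and -0.16 in QSi5, against 0.17 and 0.19 over all probe sets. At a mean of 8 or more the medians were -0.41 and -0.15 for the members, against -0.55 and -0.61 for all such probe sets. At that level the members thus fell less often and by less than probe sets in general, a difference that was not tested.

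**Figure D1:**
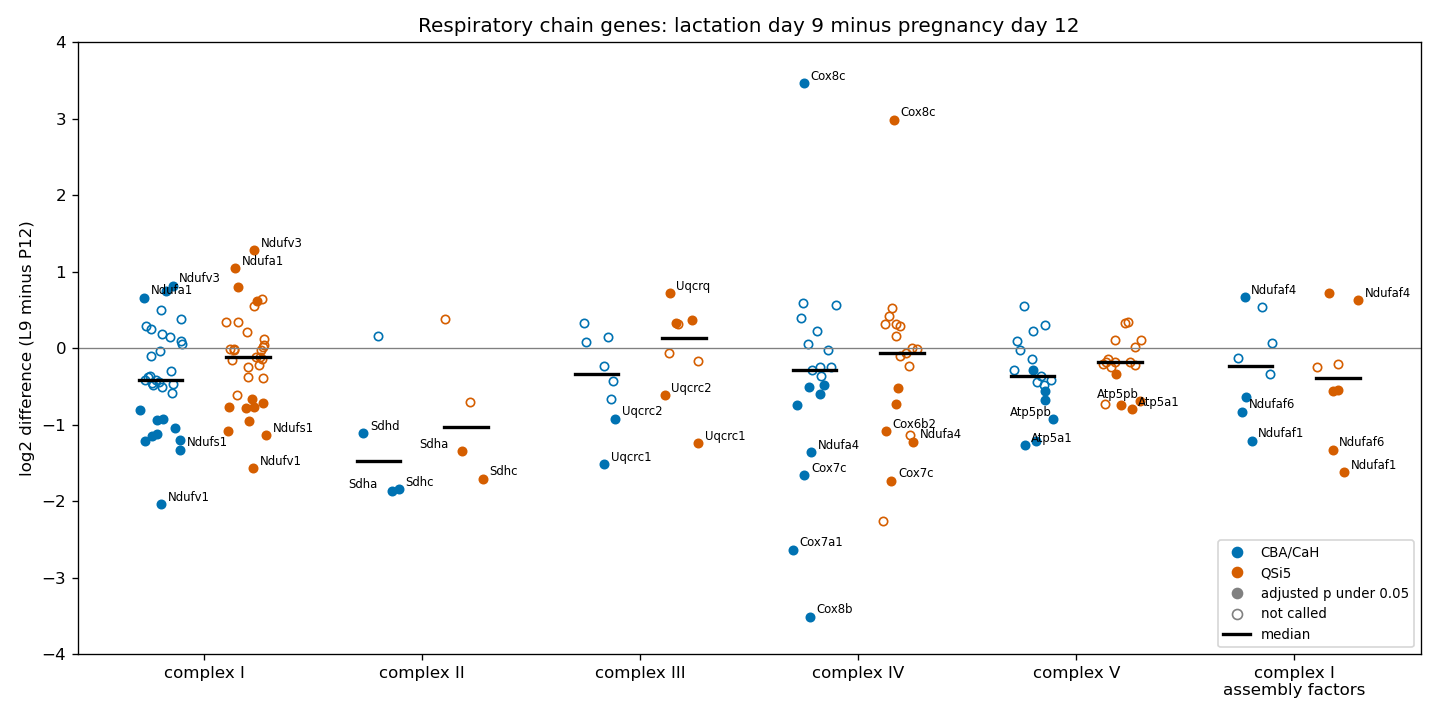
Log2 difference between lactation day 9 and pregnancy day 12 (vertical axis) for each of the 90 genes, by complex, in CBA/CaH (blue, left) and QSi5 (orange, right). Filled points passed an adjusted p under 0.05, open points did not, and black bars are medians. Complex II has the lowest medians, -1.48 and -1.03, and Cox8c the highest single values, 3.47 and 2.99.

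The direction of the family as a whole depended on how the arrays were scaled. Quantile normalization called 19 members higher and 14 lower for CBA/CaH, which is 21.1% and 15.6% of the 90, where 24.7% and 17.3% of all probe sets were called. In QSi5 it called 24 and 8 members (26.7% and 8.89%, against 26.8% and 19.5% of all). Cyclic loess called 22 and 13 members in CBA/CaH (24.4% and 14.4%, against 19.2% and 18.8%) and 31 and 8 in QSi5 (34.4% and 8.89%, against 21.4% of all in each direction). Equal array medians called 4 higher and 45 lower in CBA/CaH (against 20.2% and 24.7% of all) and 5 and 32 in QSi5 (against 21.6% and 28.4% of all). The members' shares of higher calls after quantile normalization were thus near the background. The median of the core lay below that of the other subunits under all 4 scalings. A list of 16 core subunits (those with redox centres or catalytic sites, the complex II anchors, Uqcrc1 of complex III, and Cox4i1, Cox5a and Cox5b of complex IV) had a median of -1.02 in CBA/CaH and -0.66 in QSi5, against -0.29 and -0.04 for the 66 other subunits. The same medians were -0.42 and -0.04 (core) against 0.18 and 0.43 (others) after cyclic loess, and -0.50 and -0.23 against 0.16 and 0.28 after quantile normalization. In the list, 11 of 16 (68.8%) were called lower in CBA/CaH and 7 of 16 (43.8%) in QSi5, and 0 higher in either. Of all probe sets with a mean of 8 or more, 49.5% and 52.8% were lower, with medians of -0.55 and -0.61. In QSi5 the core list was thus lower less often than such probe sets, and its median was close to theirs. Of the other 66 subunits, 18 were called lower and 4 higher in CBA/CaH, and 15 lower and 8 higher in QSi5. This is a description of the lists, with no test between them. The core list is broader than the subunits with redox centres or catalytic sites. Uqcrc2, the second core protein of complex III, and Ndufs3 of complex I stand among the other subunits. The contrast is thus between chosen lists, not between all core and all accessory subunits.

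**Figure D2:**
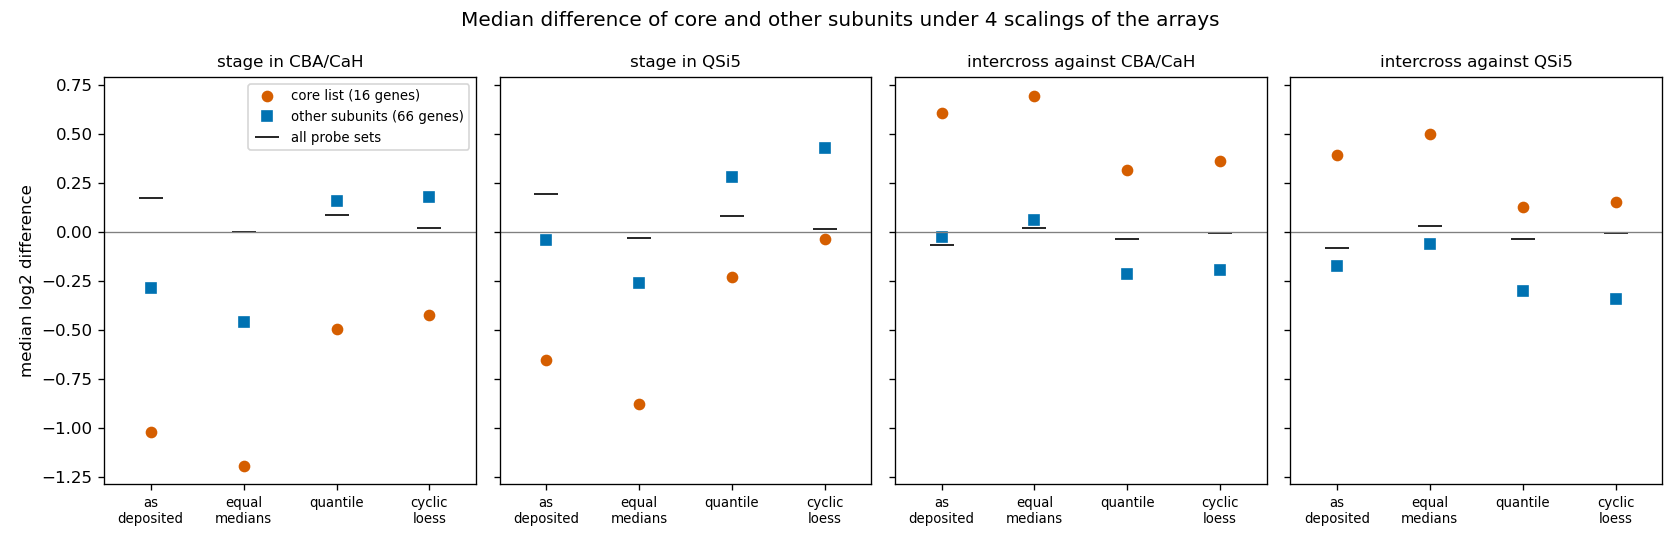
Median log2 difference (vertical axis) of the 16 core subunits (orange circles), the 66 other subunits (blue squares) and all probe sets (black dashes) with the values as deposited and under 3 other scalings of the arrays. The 2 left panels show lactation minus pregnancy and the 2 right panels intercross minus parent. The core list lies below the other subunits under every scaling at left, and above them at right.

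Members with several probe sets often gave different calls. Of the other probe sets with a mean of 8 or more that belong to members called lower, 8 of 19 were also called lower in CBA/CaH and 5 of 11 in QSi5.

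Calls that held under all 4 scalings were counted as well. In CBA/CaH 11 members were lower and 4 higher under all of them, and in QSi5 7 were lower and 4 higher. In both strains these were Ndufv1, Sdhc, Ndufa4, Cox7c, Ndufaf1 and Ndufaf6, which fell, and Ndufv3, Ndufa1 and Cox8c, which rose. Leaving out the arrays that stood apart gave 34 lower and 14 higher in CBA/CaH and 23 lower and 10 higher in QSi5. The count of 5 higher in CBA/CaH became 8 without the pregnancy CBA/CaH array 5 and 9 without the pregnancy QSi5 array 4. The count of 10 higher in QSi5 became 6 without the pregnancy QSi5 array 5 or the lactation QSi5 array 1 or 3.

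Complex I, which oxidises NADH, had 10 of 34 genes lower and 3 higher in CBA/CaH, and 9 lower and 4 higher in QSi5. Ndufv1, the subunit that binds NADH and the flavin, was at 10.52, 10.51, 10.73, 10.82 and 11.74 on the pregnancy CBA/CaH arrays and at 8.61, 8.97 and 8.91 at lactation. In QSi5 it was at 10.81, 10.91, 10.90, 10.58 and 10.21 in pregnancy and at 9.14, 9.06 and 9.14 at lactation. The stages did not overlap in either strain. With n = 5 and 3 arrays, Ndufv1 fell by 2.04 between stages in CBA/CaH, at an SE of 0.24 and an adjusted p of 8.4e-06, and in QSi5 it fell by 1.57, at an SE of 0.24 and an adjusted p of 6.16e-05 (limma). Both other probe sets of Ndufv1 were lower in CBA/CaH (-1.62 and -1.59), and 1 of them in QSi5 (-1.14, the other at -0.46 and not called). Ndufs1, the largest iron-sulfur subunit, fell by 1.33 (SE 0.29, adjusted p = 0.00139) and fell by 1.14 (SE 0.29, adjusted p = 0.00329). That call was lost after quantile normalization in both strains (adjusted p = 0.0597 and 0.250) and after cyclic loess in QSi5 (adjusted p = 0.219).

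For other iron-sulfur subunits of complex I the call depended on the probe set. Ndufs8 was lower at lactation for CBA/CaH (difference -0.93, SE 0.27, adjusted p = 0.0102) and was not called in QSi5 (-0.61). In QSi5 it was called without the pregnancy CBA/CaH array 5 (-0.61, adjusted p = 0.00861). Of its 5 other probe sets, 1 was called lower in CBA/CaH (-0.78), and 4 lay between -0.07 and 0.25 and were not called. The Ndufs8 call in CBA/CaH was lost after quantile normalization (-0.52, adjusted p = 0.181) and cyclic loess (-0.36, adjusted p = 0.377) and with the mean of its probe sets (-0.25, adjusted p = 0.284). Its brightest plain probe set, one without a suffix for shared probes, was at 0.10. Ndufv2 was not called from its brightest probe set (-0.59 and -0.14), whereas its 2 other probe sets were lower in both strains (-1.34 and -1.71 in CBA/CaH, -0.69 and -1.31 in QSi5). The brightest was called lower in CBA/CaH without the pregnancy QSi5 array 4 (-0.59, adjusted p = 0.0116). Ndufs7, which holds the last iron-sulfur cluster before ubiquinone, was not called (-0.36 and -0.22), and its sign turned after quantile normalization (0.27 and 0.49, not called).

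Among the small accessory subunits of complex I the direction was mixed. Ndufa5 was called lower in both strains (-1.20 and -0.95). Both calls were lost after quantile normalization, after cyclic loess and with its brightest plain probe set. Ndufb8 was called lower in CBA/CaH (-0.81) and Ndufb2 in QSi5 (-0.77). Ndufv3, which sits beside the NADH-binding subunits, was at 11.42, 11.26, 11.66, 11.44 and 12.27 in pregnant and at 12.23, 12.50 and 12.55 in lactating CBA/CaH mice. In QSi5 it was at 11.25, 11.38, 11.30, 11.88 and 10.98 in pregnancy and at 12.65, 12.57 and 12.70 at lactation. The stages overlapped in CBA/CaH only through array 5, the one with high brown adipocyte markers. In CBA/CaH Ndufv3 rose by 0.82 (SE 0.21, adjusted p = 0.00501), and in QSi5 it rose by 1.28 (SE 0.21, adjusted p = 0.000136). Ndufa1, a small membrane subunit encoded on the X chromosome, rose by 0.66 (SE 0.16, adjusted p = 0.00318) and by 1.05 (SE 0.16, adjusted p = 6.55e-05). Ndufb4 was also called higher (0.75 and 0.62), from a dim probe set whose group means lay between 3.93 and 4.83. Without the arrays that stood apart it was not called in QSi5 (adjusted p = 0.0575), nor after quantile normalization (0.31, adjusted p = 0.0763) or cyclic loess (0.23, adjusted p = 0.195).

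**Figure D3:**
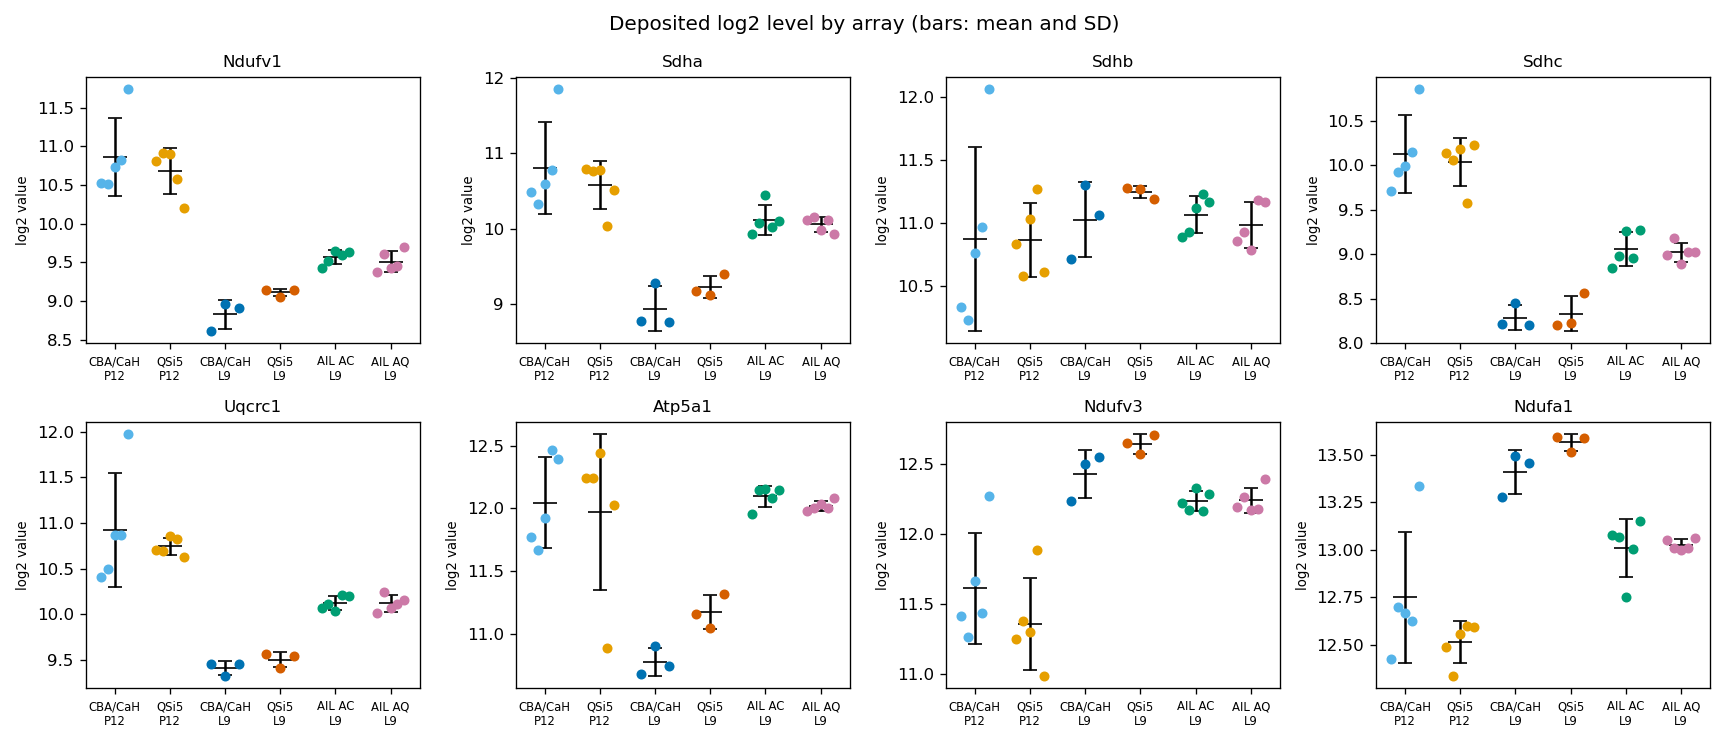
Deposited log2 level (vertical axis) of 8 members on each array (points) in the 6 groups, with the mean and SD in black. Ndufv1, Sdha, Sdhc and Uqcrc1 lie lower on all lactation arrays of the parental strains than on all pregnancy arrays of the same strain, Sdhb overlaps, and Ndufv3 and Ndufa1 are higher at lactation.

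Complex II, succinate dehydrogenase, split within its 4 subunits. Sdha, the flavoprotein that oxidises succinate, was at 10.48, 10.32, 10.59, 10.78 and 11.85 in pregnant and at 8.77, 9.28 and 8.76 in lactating CBA/CaH mice, and in QSi5 at 10.79, 10.77, 10.78, 10.04 and 10.52 and at 9.17, 9.12 and 9.40. In CBA/CaH Sdha fell by 1.87 (SE 0.28, adjusted p = 7.92e-05), and in QSi5 it fell by 1.35 (SE 0.28, adjusted p = 0.000827), with no overlap. The QSi5 call was lost after quantile normalization (adjusted p = 0.0719) and cyclic loess (adjusted p = 0.0630). Sdhc, a membrane anchor, fell by 1.84 (SE 0.22, adjusted p = 9.09e-06) and fell by 1.71 (SE 0.22, adjusted p = 1.26e-05) from its brightest probe set, while its second probe set was at -0.07 and -0.05 and not called. In CBA/CaH Sdhd, the other anchor, fell by 1.11 (SE 0.29, adjusted p = 0.00518), while in QSi5 it was at -0.70 and not called. The CBA/CaH call was lost after quantile normalization (-0.46, adjusted p = 0.18) and cyclic loess (-0.48, adjusted p = 0.159). Without the pregnancy QSi5 array 4, on which Sdhd was at 8.99 against 9.90 to 10.26 on the others, the QSi5 difference was -0.93 and was called (adjusted p = 0.00313). It was also called, at -0.70, without the pregnancy CBA/CaH array 2 (adjusted p = 0.0443) or 5 (adjusted p = 0.0385) or the lactation CBA/CaH array 2 (adjusted p = 0.045). The second probe set of Sdhd, at a mean of 6.67, was called lower in both strains (-1.34 and -0.92). In QSi5 Sdhd was also called lower with equal array medians (-0.92, adjusted p = 0.0185) and with the mean of its probe sets (-0.81, adjusted p = 0.0024).

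Sdhb, the iron-sulfur subunit whose promoter is shown above, did not follow its partners. It was at 10.33, 10.23, 10.77, 10.97 and 12.06 in pregnant and at 10.72, 11.31 and 11.06 in lactating CBA/CaH mice, and in QSi5 at 10.83, 10.58, 11.03, 11.27 and 10.61 and at 11.28, 11.27 and 11.19. The stages overlapped in both strains. The differences were 0.15 (SE 0.31, adjusted p = 0.69) and 0.38 (SE 0.31, adjusted p = 0.30). After cyclic loess the QSi5 difference was 1.00 and called higher (adjusted p = 0.0304).

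Complex III, which hands electrons to cytochrome c, had 2 of 8 genes lower and 0 higher in CBA/CaH, and 2 lower and 3 higher in QSi5. The lower share was 25% in each strain, near the 20.7% and 23.1% of all probe sets. The higher share in QSi5, 37.5%, was near the 35.9% of all. Uqcrc1, a core protein of the matrix side, was at 10.41, 10.50, 10.87, 10.87 and 11.97 in pregnant and at 9.45, 9.32 and 9.45 in lactating CBA/CaH mice, and in QSi5 at 10.70, 10.70, 10.86, 10.83 and 10.63 and at 9.56, 9.40 and 9.54. It fell by 1.52 (SE 0.25, adjusted p = 0.000166) and fell by 1.24 (SE 0.25, adjusted p = 0.000629), with no overlap in either strain. The QSi5 call was lost after quantile normalization (adjusted p = 0.125) and cyclic loess (adjusted p = 0.116). Uqcrfs1, the Rieske iron-sulfur protein, was not called (-0.66 and -0.17). In CBA/CaH it was called lower without the pregnancy QSi5 array 4 (-0.66, adjusted p = 0.0299) or the pregnancy CBA/CaH array 2 (-0.78, adjusted p = 0.0379). Uqcrc2, the second core protein, fell by 0.92 (SE 0.21, adjusted p = 0.00213) and fell by 0.61 (SE 0.21, adjusted p = 0.0211). The QSi5 call of Uqcrc2 was lost without the pregnancy QSi5 array 2 (-0.50) or the lactation QSi5 array 1 (-0.58) or 2 (-0.43). After quantile normalization the differences of Uqcrc2 were -0.49 (adjusted p = 0.0605) and -0.10 (adjusted p = 0.724), and after cyclic loess -0.36 (adjusted p = 0.183) and -0.01 (adjusted p = 0.985), so that neither strain was called. The small subunits Uqcrq (0.72, SE 0.29, adjusted p = 0.0444) and Uqcrb (0.33, SE 0.13, adjusted p = 0.032) were called higher in QSi5 and were at 0.33 and 0.15 in CBA/CaH. The Uqcrq call was lost without any 1 of 8 arrays: the pregnancy CBA/CaH array 3, the pregnancy QSi5 arrays 1, 2 and 5, the lactation CBA/CaH array 1, and the lactation QSi5 arrays 1, 2 and 3 (0.63 to 0.75). In CBA/CaH Uqcrq was called higher without the pregnancy array 5 (0.63, adjusted p = 0.00456). The other probe sets of Uqcrq, dimmer at means of 4.79 to 6.09, were all called higher in both strains. Their differences were 0.51, 0.92 and 0.51 in CBA/CaH and 0.75, 1.27 and 0.42 in QSi5. The Uqcrb call was lost without the pregnancy QSi5 array 1 (0.29) or 2 (0.32) or the lactation QSi5 array 1 (0.32) or 3 (0.28). The second probe set of Uqcrb was at -0.45 in CBA/CaH and -0.28 in QSi5 and not called. With equal array medians the QSi5 calls of Uqcrq (0.50, adjusted p = 0.158) and Uqcrb (0.11, adjusted p = 0.473) were lost. After cyclic loess both were called higher in CBA/CaH (0.87, adjusted p = 0.0414, and 0.53, adjusted p = 0.0133). Uqcrh, the hinge protein, was called higher in QSi5 (0.36), while its second probe set was lower in both strains (-1.20 and -1.02).

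Complex IV, cytochrome c oxidase, had 8 of 19 genes lower and 1 higher in CBA/CaH, and 5 lower and 1 higher in QSi5. The lower shares were 42.1% and 26.3%, against 20.7% and 23.1% of all probe sets and 49.5% and 52.8% at a mean of 8 or more. Ndufa4, a subunit once assigned to complex I, fell by 1.36 (SE 0.22, adjusted p = 0.000163) and fell by 1.22 (SE 0.22, adjusted p = 0.00028). Cox4i1, which binds early to the catalytic core, fell by 0.75 (SE 0.14, adjusted p = 0.000393) and fell by 0.53 (SE 0.14, adjusted p = 0.00398). The Cox4i1 call was lost after cyclic loess in both strains (-0.29, adjusted p = 0.102, and -0.07, adjusted p = 0.698) and after quantile normalization in QSi5 (-0.28, adjusted p = 0.102). Cox7a2l, a factor that joins complexes III and IV, fell by 0.60 and fell by 0.73 (SE 0.20 for both). Cox5a was not called (-0.28 and 0.00), but was in CBA/CaH without the pregnancy CBA/CaH array 4 (-0.37, adjusted p = 0.0277). After cyclic loess Cox5a was at 0.18 in CBA/CaH and was called higher in QSi5 (0.47, adjusted p = 0.0447). Cox5b was called lower in CBA/CaH (-0.48, SE 0.19, adjusted p = 0.0431) and was at -0.07 in QSi5. The Cox5b call was lost without any 1 of 10 arrays (the pregnancy CBA/CaH arrays 3 and 5, the pregnancy QSi5 arrays 1, 2 and 3, the lactation CBA/CaH arrays 1 and 3, and the 3 lactation QSi5 arrays), and the difference was -0.29 without the pregnancy CBA/CaH array 5. It was also lost after quantile normalization (-0.21, adjusted p = 0.449), after cyclic loess (-0.04, adjusted p = 0.914) and with the mean of its probe sets (-0.11, adjusted p = 0.536). Its brightest plain probe set was called higher (0.62, adjusted p = 0.0109). Cox7c fell by 1.66 and fell by 1.73 (SE 0.38 for both), but its brightest probe set with 1 symbol was dim, at 6.40 and 6.64 in pregnancy and at 4.74 and 4.91 at lactation.

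Cox8c, known as a testis isoform, had the largest rise of the family. Its probe set was at 6.23, 6.88, 6.84, 7.07 and 6.52 in pregnant and at 10.14, 10.62 and 9.76 in lactating CBA/CaH mice. In QSi5 it was at 7.07, 6.44, 7.03, 6.64 and 7.46 and at 9.86, 9.69 and 10.21. It rose by 3.47 (SE 0.25, adjusted p = 7.19e-08) and by 2.99 (SE 0.25, adjusted p = 2.01e-07), with no overlap. This probe set has the suffix x_at, which marks probes that may match other transcripts, and the second probe set of Cox8c rose less, by 0.80 and 0.99.

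Of the paired isoforms of complex IV, those of muscle and brown fat varied with the tissue markers of single arrays. Cox8b was at 9.59, 6.33, 11.40, 8.80 and 13.38 in pregnant CBA/CaH mice and at 6.23, 7.23 and 5.70 at lactation. Cox7a1 was at 7.28, 6.12, 9.39, 6.50 and 11.67 and at 5.40, 5.94 and 5.34. Ucp1, the uncoupling protein that defines brown adipocytes, was at 8.13, 4.07, 10.79, 5.88 and 12.47 on the same pregnancy arrays and at 4.79 to 5.08 at lactation. Arrays 3 and 5 were thus the highest in all 3 genes, and array 2 the lowest.

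In CBA/CaH Cox8b fell by 3.51 (SE 1.11, adjusted p = 0.0151), and it was not called in QSi5 (-2.26, SE 1.11). In CBA/CaH Cox7a1 fell by 2.63 (SE 0.91, adjusted p = 0.0245), and it was not called in QSi5 (-1.13). Leaving out array 5 of the pregnant CBA/CaH mice gave -2.64 and -1.76 in that strain, both called, and Cox8b was called in QSi5 (-2.26, adjusted p = 0.037). Cox8b was also called in QSi5 without the pregnancy CBA/CaH array 2 (adjusted p = 0.0341). The Cox8b call in CBA/CaH was lost without the lactation array 3 (-3.17, adjusted p = 0.0637) and after cyclic loess (-2.99, adjusted p = 0.0543), and that of Cox7a1 without the pregnancy array 3 (-2.33, adjusted p = 0.0528) or the lactation array 1 (-2.55, adjusted p = 0.0661) or 3 (-2.52, adjusted p = 0.0742). Cox6a2, the muscle isoform of Cox6a, was at 9.67 on the pregnancy QSi5 array 3 and at 8.79 on AIL AC array 1, the arrays with the highest skeletal muscle markers, and between 6.56 and 7.66 on all others. It was called higher in CBA/CaH (0.59, adjusted p = 0.0279) without that QSi5 array. The part of brown fat or muscle in these levels was not tested.

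**Figure D4:**
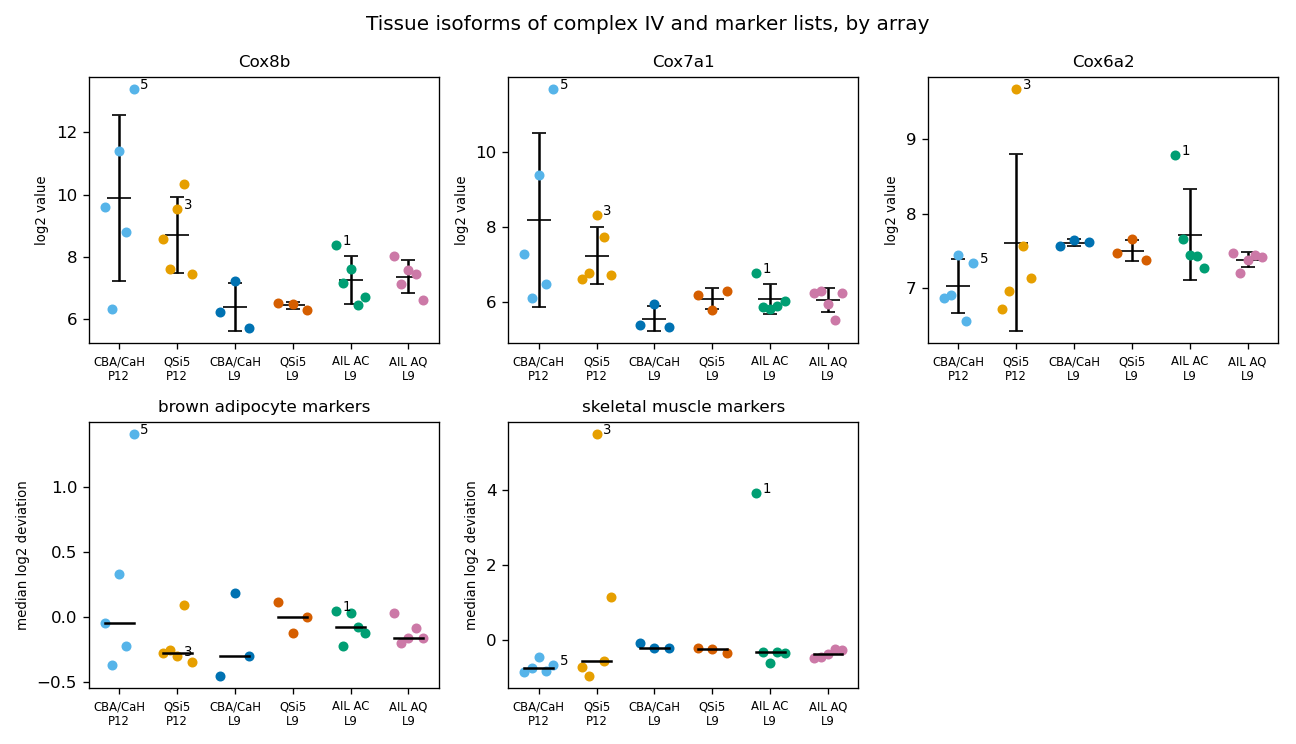
Top, deposited log2 level of Cox8b, Cox7a1 and Cox6a2 on each array, with the mean and SD. Bottom, median deviation of brown adipocyte and skeletal muscle markers from their mean over all arrays (log2 units), with group medians as bars. Numbers mark the arrays with the highest values of a marker list. The pregnancy CBA/CaH array 5 is highest for Cox8b and Cox7a1, and the pregnancy QSi5 array 3 for Cox6a2.

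Of the widely expressed partners of these isoforms, Cox8a (0.06 and 0.32) and Cox7a2 (0.22 and 0.32) were not called from their brightest probe sets. The second probe set of Cox7a2, at a mean of 11.2, was called higher in both strains (0.57 and 0.66). Of the other probe sets of Cox8a, the brighter was not called (0.14 and 0.36). The dim one, at a mean of 4.51, was called higher in both strains (0.59 and 0.40). Without the pregnancy CBA/CaH array 5, Cox7a2 was called higher in both strains (0.35, adjusted p = 0.0287, and 0.32, adjusted p = 0.0303), and in QSi5 also without the pregnancy QSi5 array 4 (0.40, adjusted p = 0.0339). After cyclic loess Cox8a (0.60 and 0.90) and Cox7a2 (0.65 and 0.75) were called higher in both strains, and after quantile normalization in QSi5 alone (0.72 and 0.52). Cox6a1 fell in CBA/CaH (-0.51, SE 0.18, adjusted p = 0.0297, against -0.24 in QSi5). The Cox6a1 call was lost without the pregnancy CBA/CaH array 3 (-0.49, adjusted p = 0.0509) or the lactation CBA/CaH array 1 (-0.49, adjusted p = 0.0793), 2 (-0.55, adjusted p = 0.0523) or 3 (-0.49, adjusted p = 0.0832), and after quantile normalization (-0.28, adjusted p = 0.318) and cyclic loess (-0.10, adjusted p = 0.76). Cox6b2, a testis isoform, fell in QSi5 (-1.08, SE 0.21, adjusted p = 0.000406) and was at -0.24 in CBA/CaH. Its mean over all arrays was 5.29, close to the array medians. Cox4i2, the lung isoform of Cox4i1, was not called (-0.02 and 0.29), nor was Ndufa4l2, a hypoxia-induced relative of Ndufa4 (0.56 and 0.53). Ndufa4l2 was called higher in both strains without the pregnancy QSi5 array 4 (0.56, adjusted p = 0.00917, and 0.76, adjusted p = 0.00138), and in CBA/CaH without the pregnancy CBA/CaH array 3 (0.64, adjusted p = 0.0499). After quantile normalization it was called higher in both strains (0.83 for both). Cox6b1, the common form of Cox6b2, was not called (-0.36 and -0.01).

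Complex V, the ATP synthase, had 6 of 17 genes lower in CBA/CaH and 4 in QSi5, and 0 higher. The lower shares were 35.3% and 23.5%, against 20.7% and 23.1% of all probe sets and 49.5% and 52.8% at a mean of 8 or more. Atp5a1, the alpha subunit of the catalytic head, was at 11.77, 11.67, 11.92, 12.47 and 12.40 in pregnant and at 10.68, 10.90 and 10.75 in lactating CBA/CaH mice. In QSi5 it was at 12.24, 12.24, 12.44, 10.88 and 12.03 and at 11.16, 11.05 and 11.32. All pregnancy arrays lay above the lactation arrays of their strain except the QSi5 array 4, the one with the high Gapdh value, which at 10.88 lay below all 3. Atp5a1 fell by 1.27 (SE 0.28, adjusted p = 0.00174) and fell by 0.79 (SE 0.28, adjusted p = 0.0251). The QSi5 difference was -1.06 without array 4. Its call was lost without the pregnancy array 1 (-0.72), 2 (-0.73) or 3 (-0.68), or the lactation array 1 (-0.78) or 2 (-0.73), with adjusted p from 0.0528 to 0.0815, and after quantile normalization (adjusted p = 0.228) and cyclic loess (adjusted p = 0.449). The brighter of the other probe sets of Atp5a1, at a mean of 11.7, was called lower in both strains (-1.28 and -0.86). The dimmer, at a mean of 6.56, was at 0.01 and 0.06 and not called.

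Atp5b, the catalytic beta subunit, fell by 1.21 in CBA/CaH (SE 0.39, adjusted p = 0.0159), a call that ended without array 3 of the lactating CBA/CaH mice (-1.05, adjusted p = 0.0731), after quantile normalization (-0.82, adjusted p = 0.0931) and after cyclic loess (-0.68, adjusted p = 0.134). In QSi5 it was at -0.73 and not called, and at -1.11 and called without the pregnancy array 4 (adjusted p = 0.000826). Atp5pb, the stalk subunit b, fell by 0.93 and fell by 0.69 (SE 0.13 for both). Atp5o, the subunit that holds head and stalk together, was not called (0.56 and 0.34), but was higher in CBA/CaH without the pregnancy QSi5 array 4 (0.56, adjusted p = 0.00613), after quantile normalization (0.86, adjusted p = 0.0155) and after cyclic loess (1.07, adjusted p = 0.00232). The 3 genes of the c ring, through which protons pass, encode the same mature protein. Atp5g1 (0.31 and 0.34) and Atp5g2 (-0.02 and -0.18) were not called, and Atp5g3 fell by 0.29 and fell by 0.34 (SE 0.09 for both), with the opposite sign after cyclic loess (0.16 and 0.12, not called). After quantile normalization Atp5g3 was at -0.02 and -0.09 and not called, and Atp5g1 was called higher in both strains (0.85, adjusted p = 0.00683, and 0.87, adjusted p = 0.005). Atp5g2 was called lower in QSi5 without the pregnancy array 4 (-0.49, adjusted p = 0.0126), and the CBA/CaH call of Atp5g3 ended without array 1 of the lactating CBA/CaH mice (-0.22, adjusted p = 0.0919).

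Of the 8 assembly factors among the members, 3 were lower and 1 higher in CBA/CaH, and 4 lower and 2 higher in QSi5. The lower shares were 37.5% and 50%, where 20.7% and 23.1% of all probe sets were lower. Ndufaf1, which helps build the membrane arm of complex I, fell by 1.21 (SE 0.21, adjusted p = 0.00027) and fell by 1.62 (SE 0.21, adjusted p = 1.5e-05). Ndufaf6 fell by 0.83 and fell by 1.33 (SE 0.22 for both), at low lactation levels of 4.97 and 5.18. Ndufaf4 was called higher in both strains (0.67, SE 0.23, adjusted p = 0.0219, and 0.63, SE 0.23, adjusted p = 0.0267), while its second probe set was at -0.64 and, called lower, at -0.90. Leaving out the lactation CBA/CaH array 2 or 3 ended the CBA/CaH call (0.62 and 0.48), and leaving out the pregnancy QSi5 array 1, 3 or 5 or the lactation QSi5 array 2 or 3 ended that in QSi5 (0.49 to 0.66). Equal array medians ended both (0.49, adjusted p = 0.0727, and 0.41, adjusted p = 0.129). Ndufaf2 was called higher in QSi5 (0.72, SE 0.29, adjusted p = 0.0417) and was at 0.54 in CBA/CaH. It was not called in QSi5 without the pregnancy array 4 (0.46) or 5 (0.71) or the lactation array 1 (0.66) or 3 (0.65), and was called in CBA/CaH without the pregnancy QSi5 array 4 (0.54, adjusted p = 0.0264) and after quantile normalization (1.03, adjusted p = 0.00288). Equal array medians ended its QSi5 call (0.50, adjusted p = 0.183). Acad9, which acts with Ndufaf1, is no member by symbol and fell by 2.36 (SE 0.36, adjusted p = 9.53e-05) and fell by 2.27 (SE 0.36, adjusted p = 9.78e-05). Of the 37 measured assembly factors outside the rule (40 listed), 16 (43.2%) were lower and 2 (5.41%) higher in each strain. Over all probe sets 20.7% were lower in CBA/CaH and 23.1% in QSi5. Among those with a mean of 8 or more 49.5% and 52.8% were lower. Lyrm7, a chaperone of the Rieske protein, rose by 0.93 and by 1.28 (SE 0.16 for both).

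Genes of mitochondrial upkeep and of electron and nucleotide carriage, none of them members, were counted the same way. Of 20 measured genes of mitochondrial biogenesis and genome upkeep (22 listed), 12 (60%) were lower and 2 higher in CBA/CaH. In QSi5 15 (75%) were lower and 2 higher, and the medians in the strains were -0.83 and -0.89. Tfam, which packages and transcribes mitochondrial DNA, fell by 2.40 and fell by 2.16 (SE 0.28 for both, adjusted p = 8.24e-06 and 1.46e-05). Ppargc1a, a coactivator of these genes, rose in QSi5 (1.75, SE 0.25, adjusted p = 4.19e-05) and was at 0.21 in CBA/CaH. It was dim, at 6.21 in lactating QSi5 mice against 4.17 to 4.65 in the other groups, and averaging its probe sets gave -0.21 in QSi5, not called. Of 19 measured electron carriers and nucleotide exchangers (20 listed), 12 (63.2%) were lower and 0 higher in CBA/CaH, and 10 (52.6%) and 1 in QSi5. Slc25a4, the ADP/ATP carrier that exports ATP from mitochondria, fell by 2.58 and fell by 2.71 (SE 0.17 for both, adjusted p = 4.2e-08 and 1.53e-08). From its brightest plain probe set Slc25a4 was at -0.28 (adjusted p = 0.184) and -0.14 (adjusted p = 0.497) and not called. Dhodh, the ubiquinone-linked enzyme of pyrimidine synthesis, was the highest called gene of that list, at 0.62 in QSi5 (SE 0.23, adjusted p = 0.0303). Its call was lost without the pregnancy QSi5 array 2 or 3 (0.61 and 0.58) or the lactation QSi5 array 1 or 3 (0.57 for both), with equal array medians (0.40, adjusted p = 0.185) and with the mean of its probe sets (0.18, adjusted p = 0.556). In CBA/CaH it was called after quantile normalization (1.10, adjusted p = 0.000974), and without the pregnancy array 2 (0.59, adjusted p = 0.0456) or the lactation array 1 (0.81, adjusted p = 0.0066). Of the 26 listed mitochondrially encoded genes, ND5 alone had a probe set with 1 symbol, and it was not called (-0.11 and 0.36).

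Beside the changes between stages stood shifts in the markers of cell types. The summed log2 level of luminal epithelial markers was 14.5 to 15.4 on the pregnancy arrays and 13.4 to 13.9 on the parental lactation arrays, without overlap. White adipocyte markers (9 of 12 listed) spanned 12.8 to 15.4 in pregnancy and 12.6 to 13.4 at lactation. Endothelial markers (10 of 10 listed) spanned 9.93 to 11.6 and 9.45 to 9.61, again without overlap. Macrophage markers had median deviations of -0.35 to 1.36 in pregnancy and -0.91 to -0.58 at lactation. For myoepithelial markers (9 of 9 listed) they were -0.03 to 1.09 and -1.46 to -0.05. Neither list overlapped by this measure, but both did by their summed log2 levels. These were 11.1 to 12.6 and 10.9 to 12.9 for macrophage markers, and 13.4 to 14.1 and 12.4 to 13.5 for myoepithelial markers. The part of these marker shifts in the differences of the members was not tested.

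No member was called between the strains. At pregnancy 0 of 90 were called and 3 had an unadjusted p under 0.05 (limma), against 1.09% of all probe sets called. At lactation 0 were called and 0 had an unadjusted p under 0.05, against 0.289% of all probe sets. The self-test recovered 71.5% of strain differences of 1 log2 unit at pregnancy and 49.5% at lactation, so many of that size could be missed. The member differences (QSi5 minus CBA/CaH) ran from -1.19 to 0.71 at pregnancy, with a median of -0.12, and from -0.40 to 0.54 at lactation, with a median of 0.13. Array weights gave 3 members higher in QSi5 at pregnancy, the mean of all probe sets 1 lower, and leaving out the pregnancy CBA/CaH array 4 gave 1 higher. Whether the change between stages differed by strain was tested as an interaction. Here 0 members were called and 1 had an unadjusted p under 0.05, against 0.104% of all probe sets called. The self-test recovered 17% of simulated interactions of 1 log2 unit, so interactions of that size could be missed. All 16 core subunits had a positive interaction value (the QSi5 difference minus that of CBA/CaH), with a median of 0.36, as had 49 of the 66 other subunits, with a median of 0.25. The median over all probe sets was 0.0035. These genes were read on the same arrays, so their signs are not independent. On the pregnancy CBA/CaH array 5 the median member deviation was 0.82, against -0.06 to 0.24 on the other arrays of that group. The part of that array in the signs was not tested.

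At lactation, core subunits such as Atp5a1, Atp5b, Sdha and Sdhd were higher in the intercross mice than in either parental strain, and the small subunits Ndufa1 and Ndufa5 were lower. Against CBA/CaH 17 members were called higher and 12 lower, where 14.7% and 17.4% of all probe sets were called. Against QSi5 18 were higher and 27 lower, where 15.7% and 20.3% of all were called. Among probe sets with a mean of 8 or more, 40.8% were higher and 7.11% lower against CBA/CaH, while of the 74 members at that level 20.3% were higher and 14.9% lower. Against QSi5 43.4% of such probe sets were higher and 7.3% lower, and of the members 21.6% and 35.1%. The members' share of higher calls at that level was below the background, a difference that was not tested. The intercross arrays are shared by both comparisons. Of the 16 core subunits, 10 were higher and 0 lower against CBA/CaH and 10 higher and 2 lower against QSi5. Of the 66 other subunits, 6 were higher and 11 lower, and 6 higher and 24 lower.

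**Figure D5:**
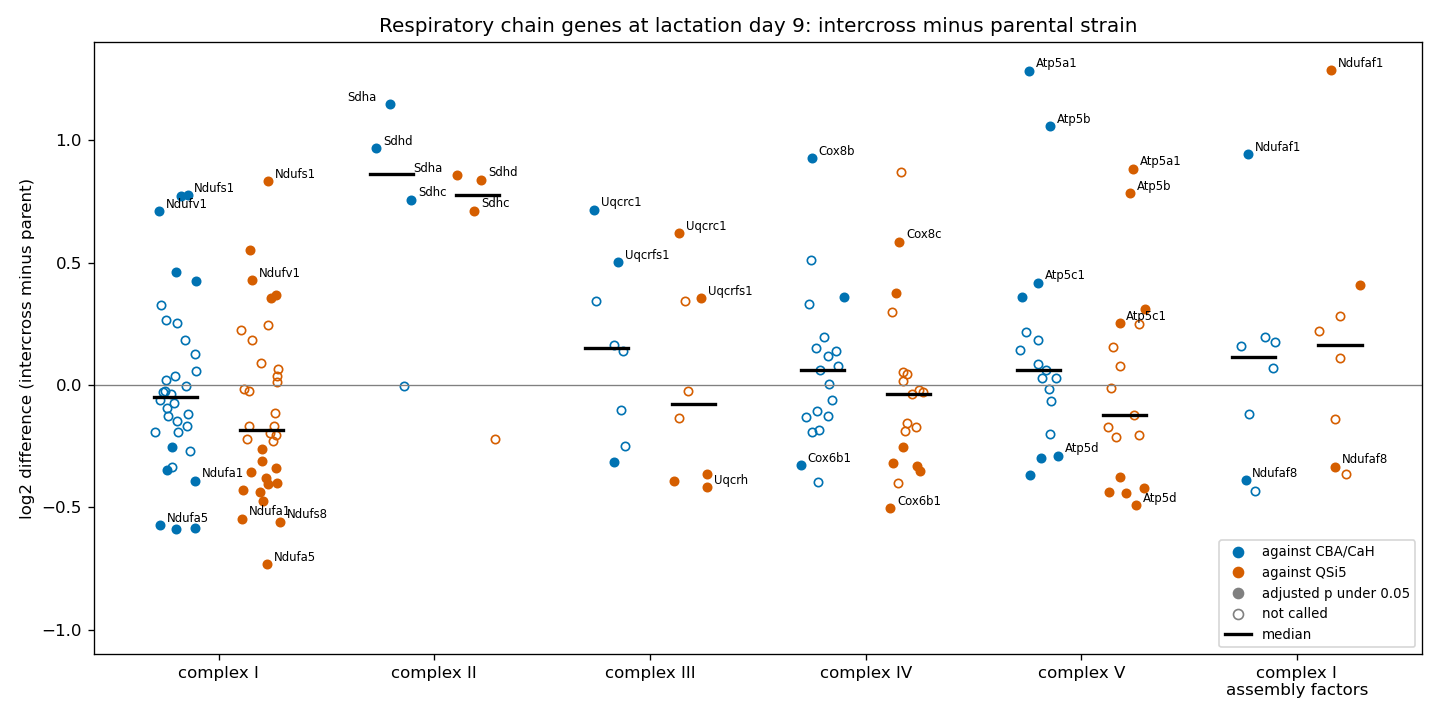
Log2 difference at lactation day 9 between the 10 intercross arrays (mean of AC and AQ) and CBA/CaH (blue, left) or QSi5 (orange, right) for each of the 90 genes, by complex. Filled points passed an adjusted p under 0.05, open points did not, and black bars are medians. In complex II, 3 of 4 genes were higher against each strain, with Sdhb at -0.00 and -0.22.

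Atp5a1 ranged from 11.95 to 12.15 on the AC arrays and from 11.98 to 12.08 on the AQ arrays, above all 6 parental lactation arrays (10.68 to 11.32). With n = 10 and 3 arrays, it was higher than in CBA/CaH by 1.28 and than in QSi5 by 0.88 (SE 0.09 for both, limma adjusted p = 1.59e-08 and 1.08e-06). When its probe sets were averaged, it was not called against QSi5 (0.17, adjusted p = 0.14). Atp5b was higher by 1.06 and by 0.78 (SE 0.12 for both), without overlap. Sdha was at 9.93 to 10.44 (AC) and 9.93 to 10.15 (AQ), against 8.76 to 9.40 on the parental arrays, and was higher by 1.15 and by 0.86 (SE 0.12 for both, adjusted p = 2.68e-06 and 5.49e-05). Sdhd was higher by 0.97 and by 0.84 (SE 0.14 for both). Ndufaf1 was higher by 0.94 and by 1.29 (SE 0.16 for both, adjusted p = 0.000266 and 1.29e-05). These 5 genes, with Sdhc, Ndufs1 and Uqcrc1, were called higher against both strains under all 4 scalings.

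The members lowest against CBA/CaH were accessory subunits of complex I. Ndufa5, a matrix-side subunit of complex I, was lower by -0.57 against CBA/CaH (SE 0.14, adjusted p = 0.00391) and by -0.73 against QSi5 (SE 0.14, adjusted p = 0.00053). Ndufa1 was at -0.39 and -0.55 (SE 0.09 for both, adjusted p = 0.00383 and 0.000245). Both were called under all 4 scalings, but Ndufa5 was not called against CBA/CaH from its brightest plain probe set (-0.34, adjusted p = 0.114). Ndufb4 (-0.59) and Ndufa7 (-0.59) were among the lowest against CBA/CaH, and Ndufs8 (-0.56) and Cox6b1 (-0.50) against QSi5. The 2 core subunits lower against QSi5 were Ndufs8 and Cox5b (-0.32). The Ndufs8 call rested on the probe set: its brightest plain probe set was at 0.10 and not called (adjusted p = 0.591).

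Counts of this comparison moved with the scaling and with single arrays. After quantile normalization 10 members were higher and 28 lower against CBA/CaH (12.1% and 15.7% of all probe sets), and 9 and 37 against QSi5 (13.4% and 17.2% of all). After cyclic loess the counts were 12 and 27 against CBA/CaH (13.0% and 12.8% of all) and 9 and 40 against QSi5 (13.9% and 13.8% of all). With equal array medians they were 22 and 4 (18.0% and 10.3% of all) and 25 and 12 (20.1% and 11.0% of all). Lower calls against CBA/CaH numbered 5 or 4 without the lactation CBA/CaH array 2 or 3. Against QSi5 they numbered 17 without the lactation QSi5 array 1, and higher calls 10 without the lactation QSi5 array 2. The Gapdh 3' minus 5' value was 0.54 to 0.80 on the 10 intercross arrays and 1.12 to 2.02 on the 6 parental lactation arrays, without overlap. White adipocyte markers had summed log2 levels of 13.4 to 14.6 in the intercross and 12.6 to 13.4 in the parents, and endothelial markers 9.53 to 10.6 and 9.45 to 9.61. Macrophage markers had median deviations of -0.15 to 0.37 in the intercross and -0.91 to -0.58 in the parents, without overlap. Their summed log2 levels did overlap, at 11.6 to 12.0 in the intercross and 10.9 to 12.9 in the parents. The part of these differences in the result was not tested. ND5, encoded by the mitochondrial genome, was higher by 0.79 and by 0.89 (SE 0.17 for both, adjusted p = 0.00205 and 0.000706).

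Between the codes AQ and AC no member was called (0 of 90, with 1 at an unadjusted p under 0.05 by limma), where 0.0% of all probe sets were called. The member differences lay between -0.34 and 0.33, with a median of -0.03. In the self-test of this comparison 94% of the simulated probe sets with a change of 1 log2 unit were recovered. That share does not measure the power for the members, as set out below.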

How the data were processed

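The authors deposited log2 values, 1 for each probe set and array, from an Affymetrix whole-genome mouse array, made with RMA per the submitters' processing notes; the version, and whether all arrays were processed together, are not given in the sources used here. No value was changed for the main results. Of 45101 probe sets, 64 controls were left out and 45037 tested. Symbols came from the array's annotation table: 34945 probe sets had 1, 932 several and 9160 none. Probe sets with several symbols name no gene here. In R 4.3.3, limma 3.58.1 (lmFit, then eBayes) was run once over the 16 parental arrays and once over the 16 lactation arrays, with Benjamini-Hochberg adjustment over all tested probe sets and a threshold of 0.05. Intercross contrasts take the mean of AC and AQ minus a parent. In a self-test the models were run on simulated data, with 200 of 45037 probe sets changed by 1 log2 unit. For stage 61% and 57% of these were recovered in CBA/CaH and QSi5, and 89% and 85.5% for the intercross against them. The noise was drawn independently for each probe set and array, so arrays that stood apart were not modelled. The adjusted cut also depends on how many probe sets change. These shares therefore do not measure the power for the members.

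Members and lists were chosen with earlier results of these data known. Named genes were, per complex, the 2 highest and 2 lowest mean stage differences, a set of core subunits and isoforms, up to 4 called members each way in other comparisons, and the extreme called gene of each other list. Others, such as Cox7c, Cox7a2l, Atp5pb, Uqcrh, ND5 and Ucp1, were named after their values were seen. Alternatives were a filter at a mean level of 5, another variance model, 3 other scalings, other array sets, weights per array, averaged or plain probe sets, the replicate number as a block, each array left out, and the 6 arrays that stood apart left out. A factor for intercross arrays 4 and 5 was added after seeing the data. Endothelial markers had median deviations of -0.70 to -0.45 on those arrays and 0.08 to 0.35 on intercross arrays 1 to 3. Correlations between the deviations of same-numbered arrays ran from -0.43 to 0.32. All were positive but low between AC and AQ (0.01 to 0.32) and between pregnant and lactating CBA/CaH mice (0.02 to 0.12). The other pairs of groups held negative values. The numbers were not taken to pair animals. Figures were drawn with matplotlib 3.10.9.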

Additional observations from a re-analysis of the deposited data

Results flagged for a closer look

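Among the 4 groups of 5 arrays, single arrays lay far from the rest for some named members (Dixon's gap test at 95%). It marked 28 of 176 gene and group pairs, where chance marks about 1 in 20 groups.

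The pregnancy QSi5 array 4, the one with the Gapdh 3' minus 5' value of 6.50, accounted for 16. It was the lowest array for Atp5a1 (10.88), Atp5b (10.29), Atp5g2 (10.24), Atp5o (10.50), Cox8a (10.52), Ndufa4 (10.67), Ndufs1 (8.49), Ndufv2 (9.93), Sdhc (9.57), Sdhd (8.99) and Uqcrfs1 (9.77). It was the highest for Cox6a1 (13.90), Cox6b1 (13.42), Cox7a2 (13.21), Ndufaf4 (8.71) and Ndufs8 (12.19). The pregnancy CBA/CaH array 5, with high brown adipocyte markers, was the highest for Cox5b (13.79), Cox7a2 (13.46), Ndufs1 (10.32), Ndufv1 (11.74) and Uqcrq (12.53). In the intercross, AC array 1 was high for Cox6a2 (8.79) and Cox7a1 (6.79), AC array 3 for Atp5b (12.03), Cox4i1 (12.75) and Ndufs8 (10.94), and AC array 5 for Atp5g2 (11.73). AQ array 3 was low for Cox6a1 (12.75). The part of RNA quality or of other tissue in these values was not tested.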

How the results depend on the processing

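Scaling moved the counts most. After quantile normalization, 19 members were higher and 14 lower at lactation in CBA/CaH (24.7% and 17.3% of all probe sets), and 24 and 8 in QSi5 (26.8% and 19.5% of all), while against CBA/CaH 10 were higher and 28 lower in the intercross, and 9 were higher against QSi5. After cyclic loess the stage counts were 22 and 13 in CBA/CaH (19.2% and 18.8% of all) and 31 and 8 in QSi5 (21.4% of all each way), with 27 lower against CBA/CaH and 9 higher against QSi5 in the intercross. With equal array medians, 5 were higher in QSi5 at lactation, and 4 were lower against CBA/CaH and 12 against QSi5 in the intercross. The count of 5 higher in CBA/CaH became 9 with only the compared groups, 10 with array weights, 8 with the mean of all probe sets, 8 with the brightest plain probe set and 14 without the arrays that stood apart, which also left 10 higher against QSi5 in the intercross. Between strains at pregnancy, array weights gave 3 higher and the mean of all probe sets 1 lower. Leaving out single arrays gave 4 to 9 higher and 25 to 37 lower in CBA/CaH, 6 to 14 and 19 to 29 in QSi5, 0 to 1 higher between strains at pregnancy, 13 to 25 and 4 to 15 for the intercross against CBA/CaH, and 10 to 20 and 17 to 27 against QSi5.

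Among the values called as deposited, signs turned for Atp5g3 after cyclic loess (0.16 in CBA/CaH and 0.12 in QSi5), for Cox5b (0.62) and Ndufs8 (0.10) in CBA/CaH, Uqcrb in QSi5 (-0.28) and Ndufs8 in the intercross against QSi5 (0.10) with the brightest plain probe set, and for Ndufaf4 (-0.14) and Ppargc1a (-0.21) in QSi5 with the mean of all probe sets. Values that were not called turned sign too, such as Ndufv2 (0.34), Sdhd (0.04) and Ndufs7 (0.49) in QSi5 after quantile normalization. The cause was not tested. With the replicate block, the stage counts were 6 higher and 25 lower (CBA/CaH) and 10 and 21 (QSi5), and those of the intercross 16 and 12 against CBA/CaH, and 12 and 30 against QSi5; the numbers are not known to pair animals. The factor for intercross arrays 4 and 5, chosen after seeing the data, gave 18 and 12 against CBA/CaH and 21 and 27 against QSi5. The number of arrays, 3 in each parental lactation group, limits the precision.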
